A study of Homo sapiens with 12 samples.

Results

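The miRNA hsa-miR-486-5p, hsa-miR-451a, hsa-miR-144-3p, hsa-miR-144-5p, hsa-miR-223-3p and hsa-miR-150-5p (the prefix is left out from here on), all abundant in blood cells, were followed in extracellular vesicles (EV) as a check on RNA carried in with the culture medium against RNA released by the cells. These 6 members were chosen by name, and 4 of them had a row among the 1133 miRNA rows of the count table. miR-144-5p and miR-223-3p had no row in the table used here and were not analysed here. The series holds small RNA libraries of 12 EV preparations made from the established human induced pluripotent stem cell (hiPSC) line IMR90-4 and its cardiac derivatives, with 3 preparations from independent cultures in each of 4 groups. hiPSC-EV came from undifferentiated cells at day 0, in TeSR-E8 medium conditioned for 24 h. CPC-EV came from cardiac progenitor cells at day 6, in RPMI medium with B27 without insulin and the Wnt inhibitor IWR-1, conditioned for 72 h. CMi-EV came from immature cardiomyocytes at day 15, in RPMI medium with B27 and insulin, conditioned for 48 h. CMm-EV came from cardiomyocytes at day 35 after culture in glucose-free RPMI medium with B27, galactose and fatty acids, also conditioned for 48 h. The 3 groups in B27 were the 3 differentiated stages, so medium and stage cannot be told apart. Per the study's methods, hiPSC and CPC grew as monolayers and both cardiomyocyte stages as aggregates in suspension. Culture format cannot be told apart from stage either. Unconditioned medium was not analysed here, as none of the 12 libraries was made from it. The study did isolate particles from each unconditioned medium. It reported far fewer than from conditioned medium, and none that looked like EV by electron microscopy.

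miR-451a and miR-144 are made from neighbouring hairpins that are switched on in developing red cells, and miR-486-5p accumulates in red cells and is also made in skeletal and heart muscle. miR-223 is a miRNA of granulocytes and platelets, and miR-150 of mature lymphocytes. B27 is a supplement that contains bovine serum albumin, and mature miRNA are often identical between mammals, so a read does not by itself show from which species it came.

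Of the 6 members, 3 matched an entry of the RefSeq miRNA table (build GRCh38.p14). The sequence of miR-144-3p, the only one of those 3 with counts, is shown with those of the comparators that the results turn on. miR-23a-3p is the reference of the red cell ratio, miR-146a-5p and miR-122-5p are blood and serum miRNA, and miR-1-3p and miR-133a-3p mark muscle. Capitals mark the seed, bases 2 to 8, which pairs with target messages.
miR-144-3p: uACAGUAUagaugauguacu
miR-23a-3p: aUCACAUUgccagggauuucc
miR-146a-5p: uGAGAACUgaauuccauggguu
miR-122-5p: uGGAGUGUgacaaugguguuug
miR-1-3p: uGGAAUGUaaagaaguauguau
miR-133a-3p: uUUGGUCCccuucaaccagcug
No 2 of these 6 shared a seed, and no other miRNA in the count table had the seed of miR-144-3p. The mature miR-144-3p lies on the minus strand at chr17:28861548-28861567. In GENCODE v44, its hairpin gene MIR144 (chr17:28861533-28861618) and MIR451A (chr17:28861369-28861440) are 92 bases apart, and both lie in an exon of the same long noncoding RNA gene. MIR150 (chr19:49500785-49500868, minus strand) overlapped no other annotated gene. MIR486-1 and MIR486-2 lie on opposite strands of an intron of ANK1, so counts of miR-486-5p could come from either.

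Counts on miRNA ranged from 703428 in hiPSC-EV 1 to 6272470 in CMm-EV 2. Levels are given as CPM, a count scaled by the miRNA total of its library, and as TMM-normalized CPM where a trimmed mean (TMM) of log ratios also scaled the libraries to one another. A library without a count could still hold up to 3 counts, which is 0.478 CPM in CMm-EV 2 and 4.26 CPM in hiPSC-EV 1. Such limits and all counting intervals cover counting error only, since reads are not independent molecules.

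The labelled cell types were checked against markers. The summed TMM-normalized CPM of 5 miRNA of pluripotent cells (miR-302a-3p to miR-302d-3p and miR-367-3p) was 186086 ± 20505 (SD, n = 3) for hiPSC-EV and 65536 ± 15441 for CPC-EV, then 5363 ± 1344 (CMi-EV) and 183 ± 103 (CMm-EV). The sum of 5 cardiomyocyte miRNA (miR-1-3p, miR-133a-3p, miR-208a-3p, miR-208b-3p and miR-499a-5p) was 58.9 ± 13.03 for hiPSC-EV and 1041 ± 413 for CPC-EV, then 49461 ± 27437 (CMi-EV) and 101388 ± 98941 (CMm-EV). Fragments of 7 of 7 cardiomyocyte transcripts were found, with TTN the most abundant, and their summed RPM, reads scaled to the library total, were 12.2 ± 8.05 for hiPSC-EV and 309 ± 94.2 for CPC-EV, then 1706 ± 276 (CMi-EV) and 886 ± 682 (CMm-EV). For cardiac progenitors, 5 of 6 transcripts had a row, with HAND2 the most abundant, and the sum was 0.255 ± 0.355 RPM in hiPSC-EV and 50.4 ± 31.9 in CPC-EV, then 26.3 ± 3.56 (CMi-EV) and 19.5 ± 23.1 (CMm-EV), so that it set hiPSC-EV apart but CPC-EV overlapped with both later groups. The 7 transcripts of pluripotent cells, led by LIN28A, summed to 112 ± 39.4 RPM in hiPSC-EV and 86.6 ± 31.1 in CPC-EV, then 9.85 ± 9.19 (CMi-EV) and 1.06 ± 1.17 (CMm-EV). The libraries of hiPSC-EV (79.3 to 156 RPM) and CPC-EV (68.2 to 123) overlapped. LIN28A gave 432 of 489 counts in CPC-EV 2 and 405 of 452 in CPC-EV 3. POU5F1, L1TD1 and NANOG had fewer counts in every CPC-EV library than in any hiPSC-EV library, while LIN28A, LIN28B, DPPA4 and SOX2 did not.

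miR-486-5p made up most of the counts of the members and had the highest level in hiPSC-EV. It had 4571, 17876 and 40511 counts in the 3 hiPSC-EV libraries, or 5291, 7088 and 8609 TMM-normalized CPM. In CPC-EV the level was 897, 814 and 1148 TMM-normalized CPM, and in CMm-EV it was 826, 767 and 905. In CMi-EV it was 2046 and 2075 in CMi-EV 1 and CMi-EV 2 but 726 in CMi-EV 3. All 3 hiPSC-EV libraries were above the other 9 libraries, among which the CMi-EV libraries ranged on both sides of the CPC-EV and CMm-EV libraries. That order depends on TMM. On CPM alone, the CMm-EV libraries, at 437 to 692, lay below all CMi-EV (736 to 2351) and CPC-EV (974 to 2014) libraries. By rank among all miRNA of a library, miR-486-5p stood between 19 and 22 in hiPSC-EV and between 37 and 64 in the other libraries. With TMM, the group means were 6996 ± 1661 (SD, n = 3) in hiPSC-EV, 1616 ± 771 in CMi-EV, 953 ± 174 in CPC-EV and 833 ± 69.1 in CMm-EV, and the libraries of the last 3 groups overlapped in part. On CPM without TMM, the means were 6950 in hiPSC-EV, 1746 in CMi-EV, 1461 in CPC-EV and 531 in CMm-EV.

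**Figure D1:**
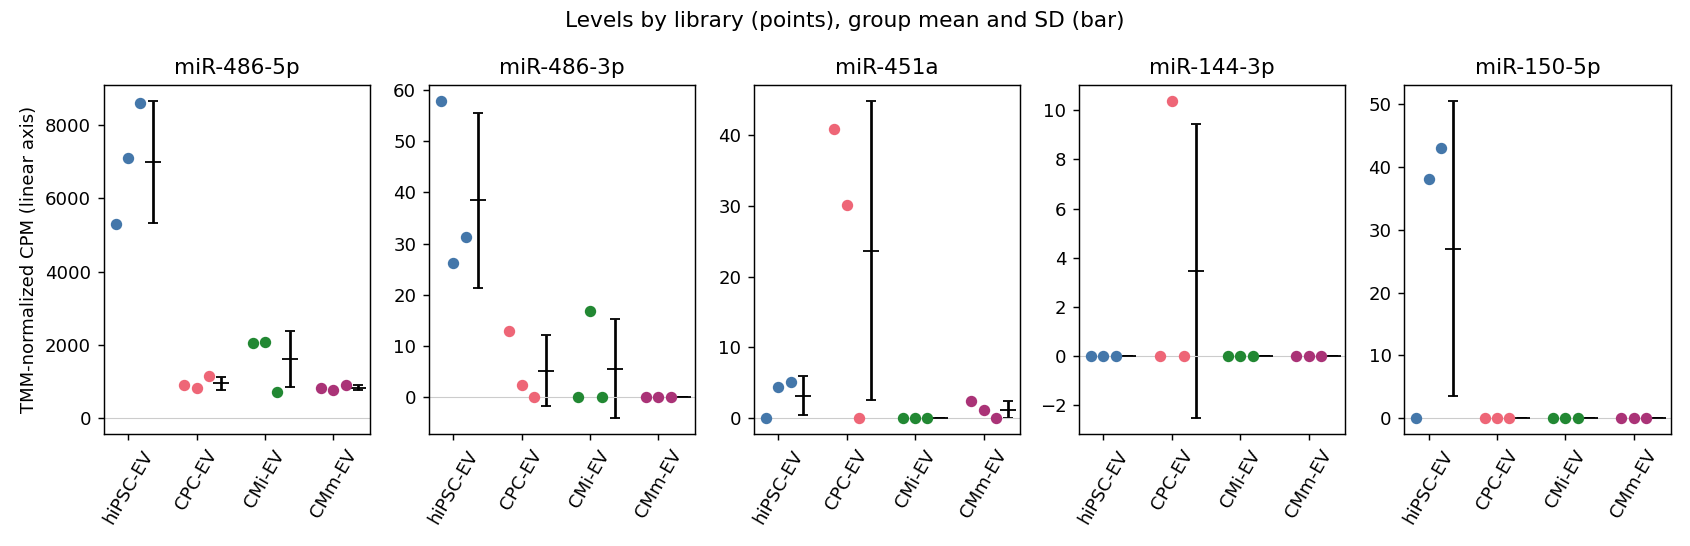
TMM-normalized CPM on linear axes, with a separate scale for each miRNA, in 3 libraries (points) of each EV group and as group mean with SD (bar). miR-486-5p was highest in the 3 hiPSC-EV libraries, at 5291 to 8609, while miR-451a was highest in CPC-EV 1 and miR-150-5p had counts in hiPSC-EV 2 and hiPSC-EV 3 alone.

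From hiPSC-EV to CPC-EV, the change of medium and the start of differentiation, the log2 fold change of miR-486-5p was -2.43 (n = 3 per group, standard error 0.24, edgeR quasi-likelihood test, FDR 0.000659), with all 3 CPC-EV libraries below all 3 hiPSC-EV libraries. It was the 1 member that passed the filter of 5 CPM, and so 1 of 1 tested member was called, beside 27.5% of all 338 tested miRNA. Without overlap between the groups, it belonged to the 37.6% of tested miRNA whose CPC-EV libraries were all lower. The median of all tested miRNA stood at -0.27, and relative to it the change was -2.16. In the fit without a filter the median was -1.52, and relative to it the change was -1.02. By size of the decrease, miR-486-5p ranked 39 of 338.

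From CPC-EV to CMi-EV, within B27 media, 0 of 1 tested member was called by edgeR, beside 28.4% of 292 tested miRNA. The log2 fold change of miR-486-5p was 0.77 (standard error 0.43, edgeR FDR 0.265). At an unadjusted p under 0.05 the count of members was also 0, and it was 0 with DESeq2. The lack of a call rested on CMi-EV 3, without which the value was 1.12 and was called (edgeR FDR 0.0104). With library size only in place of TMM it was 0.26 (edgeR FDR 0.723).

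From CMi-EV to CMm-EV, 0 of 1 tested member was called, beside 16.6% of 247 tested miRNA. For miR-486-5p the value was -1.13 on the log2 scale (edgeR FDR 0.113, standard error 0.39). It was 1 member at an unadjusted p under 0.05 and 0 called with DESeq2. This call too depended on CMi-EV 3, without which the log2 fold change was -1.43 and was called (edgeR FDR 0.00362), and on the scaling, since with library size only it was -1.72 and was called (edgeR FDR 0.0346). The fit without a filter called it as well (edgeR FDR 0.0244), beside 7.03% of 654 miRNA. In that fit the variance was shared almost wholly across all miRNA, so this FDR does not measure the spread of miR-486-5p itself.

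Across the 4 EV groups, miR-486-5p differed (edgeR F-test, FDR 4.38e-05), which made 1 of 1 tested member beside 50.1% of 367 tested miRNA. Between the 3 groups in B27 media and hiPSC-EV, its log2 fold change was -2.69 (standard error 0.29, edgeR FDR 8.02e-06), again 1 of 1 tested member called, beside 45.8% of 367. All 9 libraries in B27 lay below the 3 hiPSC-EV libraries, as they did for 23.4% of tested miRNA. The median of all tested miRNA was -0.88 in this contrast, and relative to it the change was -1.80. In the fit without a filter the median was -2.09, and relative to it the change was -0.74. A lower level in the B27 groups was thus shared by many tested miRNA. This contrast shares the hiPSC-EV libraries with the comparison to CPC-EV.

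**Figure D2:**
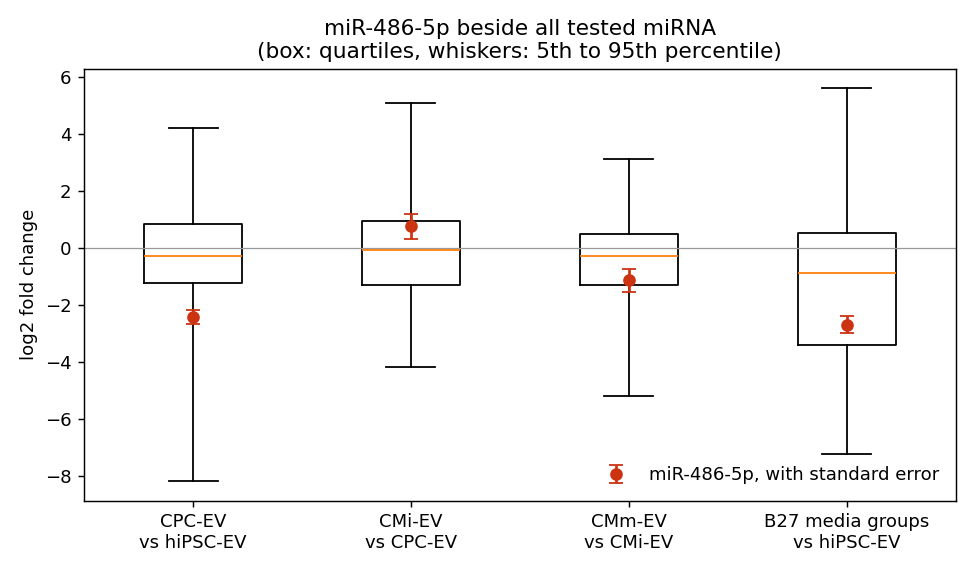
Log2 fold change of miR-486-5p (red point, with standard error) in 4 comparisons, over boxes of all tested miRNA (line: median, box: quartiles, whiskers: 5th to 95th percentile). The change from hiPSC-EV to CPC-EV, -2.43, lies below the box, and the contrast of B27 media groups with hiPSC-EV, -2.69, lies inside it.

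The opposite arm of the hairpin, miR-486-3p, had 50, 66 and 147 counts in hiPSC-EV, then 34, 10 and 0 for CPC-EV, and 0, 32 and 0 for CMi-EV, with none in CMm-EV. Per count of miR-486-3p there were 91.4, 271 and 276 counts of miR-486-5p in the 3 hiPSC-EV libraries, 68.9 in CPC-EV 1, 329 in CPC-EV 2 and 124 in CMi-EV 2. In the 6 libraries without a count of miR-486-3p, all in B27, this ratio was at least 227 (CMm-EV 1) to 1552 (CMi-EV 1), against 3 counts per library, a limit for counting error only. ANK1, the host gene, had 44.3 counts in all, of which 34 were in CMm-EV 1 and 9 in hiPSC-EV 3.

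miR-451a, the miRNA most restricted to the red cell lineage among the members, was low everywhere. It had 0, 11 and 24 counts in hiPSC-EV, 107, 122 and 0 in CPC-EV, none in the 3 CMi-EV libraries, and 2, 4 and 0 in CMm-EV. The highest level was 63.7 CPM in CPC-EV 1 (exact 95% Poisson interval 52.2 to 76.96), followed by 36.1 CPM in CPC-EV 2 (29.97 to 43.1), while hiPSC-EV 2 and hiPSC-EV 3 were at 4.38 and 4.29 CPM. CPC-EV 3 had no count, where the level of CPC-EV 1 and CPC-EV 2 would have given 69.6. Such gaps were frequent in that library. Of 60 miRNA between 20 and 80 CPM in both other CPC-EV libraries, 26 (43.3%) had no count in CPC-EV 3, a window chosen after the values were seen. miR-451a did not pass the filter, and the fit without a filter did not call it between CMi-EV and CPC-EV (edgeR FDR 0.182). In CMi-EV, also in B27, miR-451a had no counts. If each of these libraries held at most 3 counts, its mean was at least 14.1-fold lower than the CPC-EV mean. On that condition the level of CMi-EV 3, with the highest such limit, was at least 10.9-fold lower. These limits cover counting error only, and the gap in CPC-EV 3, 0 against 69.6 counts, was larger than that. The limit on the mean was 8.95-fold without CPC-EV 1 and 21.1-fold without CPC-EV 3, through which the groups overlapped at 0.

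miR-144-3p, from the hairpin next to miR-451a, had 42 counts in CPC-EV 2, or 12.4 CPM (exact 95% Poisson interval 8.95 to 16.8), and none in the other 11 libraries. CPC-EV 1 had the higher level of miR-451a but no count of miR-144-3p, where the level of CPC-EV 2 would have given 20.9. Both miRNA of the locus were thus found together in 1 of 12 libraries.

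miR-150-5p had 0, 96 and 202 counts in hiPSC-EV and none in the 9 libraries in B27. hiPSC-EV 2 and hiPSC-EV 3 were close, at 38.2 and 36.1 CPM, whereas hiPSC-EV 1 lacked the 25.8 counts that this level would have given. Of 71 miRNA between 20 and 80 CPM in both other hiPSC-EV libraries, 14 (19.7%) had no count in hiPSC-EV 1, in the same window, also chosen after the values were seen. The mean of hiPSC-EV was 26.997 TMM-normalized CPM. If each of the 9 other libraries held at most 3 counts, their mean level was at least 17.7-fold lower. On that condition the limit was 7.43-fold for CMm-EV 1, with the highest limit, and 26.6-fold for the mean without hiPSC-EV 1. These limits cover counting error only, and the gap in hiPSC-EV 1, 0 against 25.8 counts, was larger than that. In a fit without a filter, miR-150-5p was called with miR-486-5p, so that 2 of 4 members were called from hiPSC-EV to CPC-EV (miR-150-5p edgeR FDR 0.0252, beside 7.57% of 1044 miRNA) and between the groups in B27 and hiPSC-EV (edgeR FDR 0.00101, beside 28.5% of 1126), as well as across the 4 groups (edgeR FDR 0.0118, beside 17.3% of 1126). The fold changes of that fit are not given, since one side had no counts. Its F-tests used a variance shared almost wholly across all miRNA, not that of the 0, 96 and 202 counts. These FDR therefore do not measure the spread of miR-150-5p, whose hiPSC-EV libraries overlapped the others at 0. The opposite arm, miR-150-3p, had counts in 1 library, in hiPSC-EV.

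The log2 ratio of miR-451a to miR-23a-3p, in use as a measure of red cell RNA in plasma, was -6.91 ± 1.34 (SD, n = 3) for hiPSC-EV and -5.12 ± 3.86 for CPC-EV, then -10.84 ± 0.49 (CMi-EV, where no library had a count of miR-451a) and -9.83 ± 2.43 (CMm-EV), with 0.5 counts added to both. In CPC-EV 1 there were 107 counts of miR-451a to 626 of miR-23a-3p, and in CPC-EV 2 there were 122 to 1166. For CMi-EV and CMm-EV together, against hiPSC-EV and CPC-EV, the difference on this scale was -4.32, which missed the threshold after adjustment over 4 tests (exact permutation test, two-sided, 924 splits, p = 0.0130, adjusted p = 0.0519). With no count of miR-451a in 4 of those 6 libraries and in 2 of the other 6, its size depends on the count added and on depth, and is not a measured fold. The test shuffled the libraries freely although they form 4 groups of 3, so its p does not measure the spread between groups. The denominator also differed, as miR-23a-3p rose from CPC-EV to CMi-EV with a log2 fold change of 1.18 (edgeR FDR 0.0345). It was not called in the fit without a filter, where the log2 fold change was 1.10. hiPSC-EV against the other 9 libraries gave a difference of 1.68 (exact permutation test over 220 splits, p = 0.459, adjusted p = 0.468).

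The log2 ratio of miR-486-5p to miR-451a was 11.48 ± 1.45 (SD, n = 3) for hiPSC-EV and 7.26 ± 4.62 for CPC-EV, then 12.37 ± 1.22 (CMi-EV) and 9.85 ± 2.06 (CMm-EV). As counts, miR-486-5p exceeded miR-451a 1625-fold and 1688-fold in hiPSC-EV 2 and hiPSC-EV 3, but 21.9-fold and 26.99-fold in CPC-EV 1 and CPC-EV 2. The members therefore did not move as a block between those 4 libraries. Neither hiPSC-EV against the others (difference 1.66, exact permutation test, p = 0.468, adjusted p = 0.468) nor CMi-EV and CMm-EV against the rest (difference 1.73, exact permutation test, p = 0.351, adjusted p = 0.468) passed. With miR-451a at 0 in 6 of 12 libraries and at 2 and 4 counts in 2 more, these ratios depend on the count added.

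The summed share of the members in miRNA counts was 0.698% ± 0.0420 (SD, n = 3) for hiPSC-EV and 0.150% ± 0.0497 for CPC-EV, then 0.175% ± 0.0880 (CMi-EV) and 0.0532% ± 0.0142 (CMm-EV). miR-486-5p supplied between 95.3% (CPC-EV 2, exact 95% binomial interval 94.5 to 95.9) and 100% of it. The other members together had 63.7 CPM in CPC-EV 1, 48.5 in CPC-EV 2, 42.6 in hiPSC-EV 2 and 40.4 in hiPSC-EV 3, and at most 2.03 CPM in any other library. The pair of libraries in CPC-EV carried miR-451a, and the pair in hiPSC-EV mainly miR-150-5p.

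The transcripts of blood cells that had a row were at or near 0 in every library. Of 15 red cell transcripts used here, 3 had a row (HBD, SLC4A1 and CA1), led by SLC4A1 with 2 counts in all, and their sum was at most 1 count and 0.622 RPM in a library. HBA1, HBA2, HBB and ALAS2 had no row in the table used here. Of 9 white cell transcripts SPI1 alone had a row, with 1 count in CMi-EV 1, and of 4 platelet transcripts PF4 alone had one, with 0.333 counts in CMm-EV 2. The summed red cell signal in CPC-EV 1 and CPC-EV 2, where miR-451a was highest, was 1 and 0 counts.

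**Figure D3:**
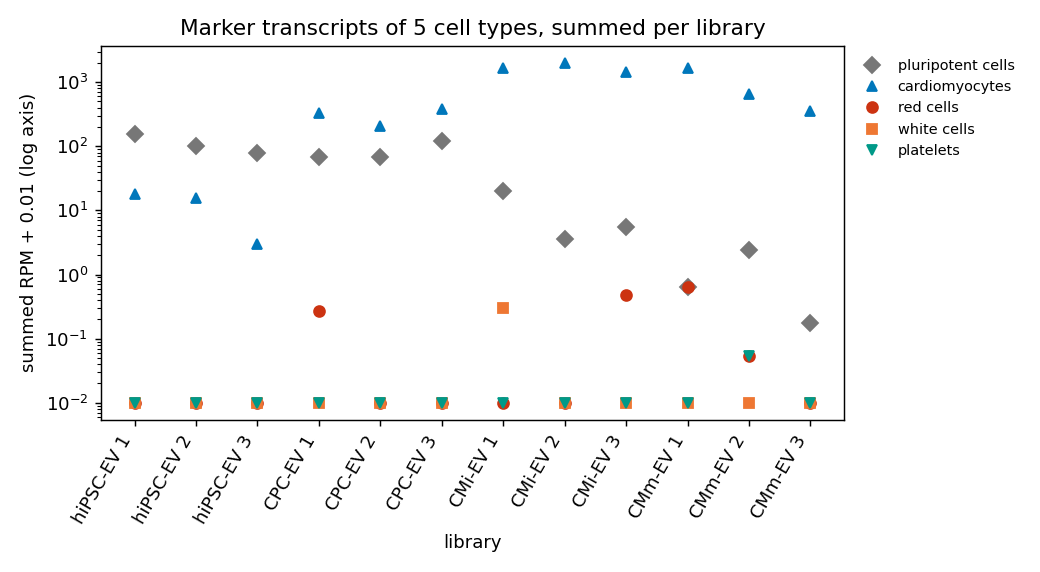
Summed RPM of marker transcripts of 5 cell types in each of 12 libraries, with 0.01 added, on a log axis. The red cell, white cell and platelet transcripts that had a row stayed at or under 0.622 RPM, while cardiomyocyte transcripts averaged 1706 RPM in CMi-EV.

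Other blood and serum miRNA went in different directions. From hiPSC-EV to CPC-EV, 5 of 8 listed were tested, 1 was called higher and 1 lower, beside 27.5% of all 338 tested miRNA, and the median log2 fold change was -0.11, against -0.27 for all tested miRNA. The one that rose was miR-122-5p, a liver miRNA abundant in serum, with 0, 0 and 6 counts in hiPSC-EV against 1223, 4950 and 1285 in CPC-EV (edgeR FDR 0.000477). It passed the filter only through CPC-EV, where it is high, and was also called in the fit without a filter. The fitted fold change of miR-122-5p is not given, since hiPSC-EV was at or near 0 counts. It was present in all 9 libraries in B27, from 268 to 2005 TMM-normalized CPM, with its highest value in CMi-EV 3. The one that fell was miR-146a-5p, of immune cells, from 322 ± 112 to 26.5 ± 11.1 TMM-normalized CPM (log2 fold change -3.18, standard error 0.48, edgeR FDR 0.00457). From CPC-EV to CMi-EV 0 of 5 tested were called by edgeR (0 at an unadjusted p under 0.05, and 0 with DESeq2), beside 28.4% of 292. From CMi-EV to CMm-EV it was 0 of 3 (again 0 at an unadjusted p under 0.05, and 0 with DESeq2), beside 16.6% of 247. miR-142-5p, of blood cells in general, had 36 and 62 counts in hiPSC-EV 2 and hiPSC-EV 3 and 1 count in CMm-EV 1, the distribution that miR-150-5p also had but for that 1 count. miR-155-5p, of activated lymphocytes, had 0, 234 and 606 counts in hiPSC-EV, 111, 76 and 0 in CPC-EV, 42 in CMi-EV 2 and none elsewhere.

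Of 4 widely expressed miRNA that are also abundant in red cells, 0 were called by edgeR from hiPSC-EV to CPC-EV (1 at an unadjusted p under 0.05, and 0 called with DESeq2), beside 27.5% of 338. From CPC-EV to CMi-EV it was also 0 by edgeR (2 at an unadjusted p under 0.05, and 0 called with DESeq2, but 1, miR-25-3p, lower in the fit without a filter), beside 28.4% of 292, and from CMi-EV to CMm-EV it was 1, miR-92a-3p, lower (log2 fold change -1.62, edgeR FDR 0.00101), beside 16.6% of 247. Between the groups in B27 and hiPSC-EV, 3 of 4 were called lower (2 of 4 with DESeq2), beside 34.3% of all 367 tested miRNA, namely miR-92a-3p, miR-25-3p and miR-185-5p, while miR-16-5p had a log2 fold change of -0.82 (edgeR FDR 0.146). miR-25-3p, at 3857 ± 1281 TMM-normalized CPM in hiPSC-EV, was at 1536 ± 328 in CPC-EV, then 805 ± 116 (CMi-EV) and 444 ± 185 (CMm-EV).

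Because miR-486-5p is also a muscle miRNA, it was set beside the muscle list, of which 7 of 7 had a row. From CPC-EV to CMi-EV, in the fit without a filter, 5 of 7 muscle miRNA were called higher, beside 5.85% of 718, and miR-486-5p was not called. In the fit with the filter but without CMi-EV 3, miR-486-5p was called higher (log2 fold change 1.12, edgeR FDR 0.0104). miR-1-3p, a miRNA of heart and skeletal muscle, went from 909 ± 351 to 46184 ± 27417 TMM-normalized CPM (log2 fold change 5.67, standard error 0.53, edgeR FDR 0.00107). miR-133a-3p, made from the same transcripts, went from 126 ± 69.1 to 2573 ± 218. Within CMi-EV, miR-486-5p was lowest in CMi-EV 3, and so was miR-1-3p, at 17288 against 49429 and 71834 TMM-normalized CPM. Of the other muscle miRNA, miR-206 was also lowest there, and miR-133a-3p and miR-133b were not. miR-208a-3p, miR-208b-3p and miR-499a-5p were highest in CMi-EV 3. Over the 12 libraries on log2(TMM-normalized CPM + 1), the Pearson r of miR-486-5p with the 6 muscle miRNA that passed the filter ran from -0.72 to -0.44 (Spearman rho -0.59 to -0.26, n = 12), which pools hiPSC-EV with the other groups.

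**Figure D4:**
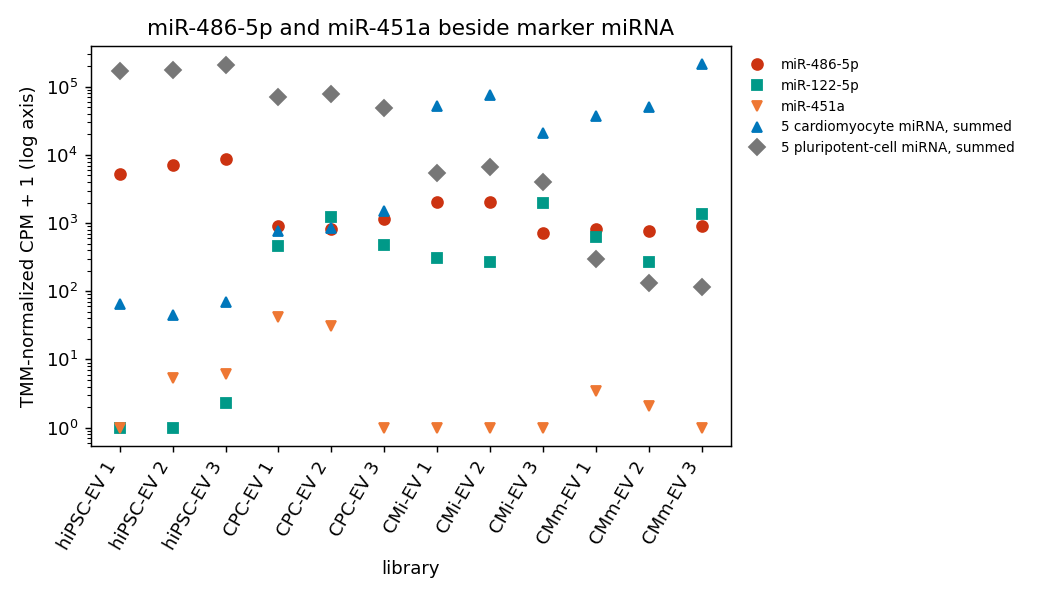
TMM-normalized CPM + 1 on a log axis for miR-486-5p, miR-451a, miR-122-5p and the sums of 5 cardiomyocyte and 5 pluripotent-cell miRNA in 12 libraries. miR-486-5p is highest in hiPSC-EV, whereas miR-122-5p and the cardiomyocyte sum are lowest there.

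The miRNA most like miR-486-5p over the 12 libraries, among 366 others that passed the filter, were miR-135a-2-3p (Pearson r 0.94, Spearman rho 0.83), miR-520a-5p (r 0.93, rho 0.76) and miR-525-5p (r 0.93, rho 0.76). All 12 points share the 4 groups, and the r mainly reflects hiPSC-EV against the rest. miR-520a-5p averaged 36.5 ± 8.71 TMM-normalized CPM in hiPSC-EV (SD, n = 3) and had no count in the other 9 libraries, unlike miR-486-5p, which kept a mean of at least 833 in each group. The part of the medium in these levels cannot be told apart from that of the stage.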

How the data were processed

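The authors assigned small RNA reads to RNA classes with the exceRpt pipeline on hg38, and per the labels used edgeR 3.24.0. The deposited tables hold expected counts per miRNA and per transcript, and the RPM deposited by the authors are reads scaled to library totals. Expected counts were rounded to whole numbers, which changed 0 values of the members. The members and lists were chosen with earlier results of these data known. Of the planned blood cell transcripts, 3 are not reported here, for a reason unrelated to their values, and the sums are without them.

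Fits used the quasi-likelihood F-test of edgeR 4.0.16 in R 4.3.3 with TMM, for miRNA that reached 5 CPM in all 3 libraries of some group. Two-sided p-values were adjusted by Benjamini-Hochberg across every miRNA tested, and a call needed an FDR up to 0.05 with an absolute log2 fold change of 1 or more, or the FDR alone across the 4 groups. Each pairwise fit was scaled within its 6 libraries, and the levels over all 12. DESeq2 1.42.0 was an alternative. Ratios were compared with exact permutation tests in Python 3.11.15, which shuffled all 12 libraries freely although they form 4 groups of 3. Named miRNA were the members, the listed miRNA and the 3 most correlated with miR-486-5p. All 12 pairs of replicates lay further apart than sampling noise (chi-square over its degrees of freedom, 65.9 to 781). Sequences are from RefSeq, and gene positions from GENCODE v44.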

Additional observations from a re-analysis of the deposited data

How the results depend on the processing

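The lower level of miR-486-5p in CPC-EV and in the B27 groups than in hiPSC-EV kept its direction and its call under every scaling, filter and tool tried and without any 1 library. Without 1 library the log2 fold change ran from -2.59 to -2.22 for CPC-EV and from -2.80 to -2.33 for the B27 groups. It was -2.62 for CPC-EV with the dispersion of all 12 libraries, and -2.83 for the B27 groups without a filter. With each library in turn as the TMM reference, chosen after seeing the data, the value for the B27 groups ran from -2.83 to -2.19. Across the 4 groups the FDR without 1 library ran from 5.27e-06 to 0.000727.

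Calls within B27 media did change. For CMi-EV vs CPC-EV the log2 fold change was 0.26 with library size only. Without 1 library it ran from 0.49 to 1.12, and members called from 0 to 1, with 1 called without CMi-EV 3 (miR-486-5p) and 1 without CPC-EV 3 (miR-451a). For CMm-EV vs CMi-EV it was called with library size only (-1.72, edgeR FDR 0.0346), without a filter (-1.14, edgeR FDR 0.0244) and without CMi-EV 3 (-1.43), so that members called went from 0 to 1 in each. Without 1 library it ran from -1.43 to -0.81. Without a filter, or without hiPSC-EV 1, members called rose from 1 to 2 for CPC-EV vs hiPSC-EV, across the groups and for the B27 groups, and without CPC-EV 3 across the groups. The member added was miR-150-5p, or miR-451a without CPC-EV 3. Without a library, each passed the filter only through the group where it is high, so these calls follow in part from the filter. Without a filter, the variance was shared almost wholly across all miRNA, so those calls do not measure the spread of each member.

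The miRNA called without 1 library numbered 75 to 129 for CPC-EV vs hiPSC-EV, 72 to 102 for CMi-EV vs CPC-EV, 20 (without CMm-EV 2, against 41) to 60 for CMm-EV vs CMi-EV, 154 to 201 across the groups and 134 to 174 for the B27 groups. For CMm-EV vs CMi-EV it was 27 with filterByExpr, and for the B27 groups 321 without a filter, where more miRNA were tested.

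With the replicate number as a block, 39 miRNA were called for CPC-EV vs hiPSC-EV and 17 for CMm-EV vs CMi-EV, and no call of miR-486-5p changed (log2 fold change -2.45 for CPC-EV vs hiPSC-EV). Not every library correlated best with its own number, so the numbers were not taken as a pairing.

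The log2 difference in miR-451a to miR-23a-3p between CMi-EV with CMm-EV and the rest passed with 1 count added (-3.93, adjusted p = 0.0260, exact permutation test), without hiPSC-EV 1 (adjusted p = 0.0433), without CPC-EV 3 (adjusted p = 0.0260) and without CMm-EV 1 (adjusted p = 0.0433), against 0.0519. Without 1 library it ran from -5.03 to -3.62. These values depend on the count added and on depth. Of the library total, the summed share was 0.374% in hiPSC-EV and 0.0653% in CPC-EV. Without miR-486-5p, hiPSC-EV had 0.00277%, CPC-EV 0.00374%, CMi-EV 0% and CMm-EV 8.89e-05%. Depth limits miR-451a, miR-144-3p and miR-150-5p, whose absence in a library was not detectable below 3 counts.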
